A study of Homo sapiens with 16 samples.

Results

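The SOCS family comprises the suppressors of cytokine signaling, the proteins by which a cell turns down its own response to cytokines. Its 8 members, SOCS1, SOCS2, SOCS3, SOCS4, SOCS5, SOCS6, SOCS7 and CISH, were taken by gene symbol from a count table of 25370 genes. All 8 members had a row in the table, and all 8 were among the 16004 genes that passed the filter on low counts.

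Transcripts were sequenced from HMC3, an immortalized line of human microglia, after 24 h of treatment. The 8 groups were vehicle, 0.1 nM estradiol (E2), 400 nM ketamine, 400 nM 2R6R-HNK, 400 nM 2S6S-HNK, and each of these 3 drugs at 400 nM together with 0.1 nM E2 (E2+ketamine, E2+2R6R-HNK and E2+2S6S-HNK). Each group had 2 libraries, and, by the study's methods, cells were held in charcoal-stripped serum and then in serum-free medium before being treated without serum. HNK is hydroxynorketamine, a product of ketamine metabolism, and 2R6R-HNK and 2S6S-HNK are mirror-image forms of it. Whether the libraries of a group came from separate cultures is not given in the sources used here, so each p-value measures only the spread between these libraries, which may be technical. Library totals ranged from 55300614 to 81646165 counts. Among microglia markers CD68 had a mean of 20.5 CPM (counts scaled to the library total) and CD14 of 2.53 CPM. CSF1R and TREM2 had means of 0.728 and 0.723 CPM. The other defining markers AIF1, CX3CR1, P2RY12, TMEM119, ITGAM and PTPRC had means of at most 0.0312 CPM. C1QA, C1QC and CD163 had no count in any library. Of 16 fibroblast and mural cell markers, 13 reached 1 CPM, whereas COL3A1, DCN and LUM had means of at most 0.0474 CPM. The summed level of the 16 ran from 21861 CPM in the ketamine group to 26970 CPM in the E2+2R6R-HNK group. FN1 alone had a mean of 14739 CPM over the libraries. Of 13 astrocyte and neuron markers 5 reached 1 CPM, AQP4 and STMN2 were at 0, and the summed level ran from 97.2 CPM with E2+ketamine to 175.9 CPM in vehicle, most of it from GJA1. The part of cell state in the changes described here was not tested.

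SOCS proteins share a central SH2 domain, which docks onto phosphorylated tyrosines of receptors and kinases, and a C-terminal SOCS box, which recruits elongin B, elongin C and cullin 5 into a ubiquitin ligase that marks the docked protein for destruction. SOCS1 and SOCS3 also carry a short kinase inhibitory region that blocks Janus kinases (JAKs) directly. SOCS1, SOCS2, SOCS3 and CISH are classical feedback genes, transcribed when cytokine receptors activate STAT transcription factors. SOCS4, SOCS5, SOCS6 and SOCS7 have long N-terminal regions and are tied more to growth factor and insulin receptor signaling than to cytokine feedback. In microglia SOCS1 and SOCS3 are known for restraining responses to interferons and to cytokines of the interleukin 6 type.

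The study assayed SOCS1 and SOCS3 by realtime PCR and by STAT3 chromatin immunoprecipitation, and the sequences of the chromatin assays are shown because they place those assays on the genome. The primers come from the study's primer list. Each primer matched GRCh37 once. The SOCS3 chromatin amplicon covers 60 bases at chr17:76356543-76356602, 385 to 444 bases upstream of the SOCS3 start and inside an exon of the divergent noncoding gene SOCS3-DT. The SOCS1 chromatin amplicon covers 71 bases at chr16:11327049-11327119, which begins 22942 bases downstream of the SOCS1 start, 21155 bases past the end of the gene, in no annotated gene. Both are written on the minus strand, the strand of both genes, as GRCh37 sequence.
SOCS3 chromatin amplicon: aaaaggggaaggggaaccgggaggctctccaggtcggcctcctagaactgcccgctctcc
SOCS1 chromatin amplicon: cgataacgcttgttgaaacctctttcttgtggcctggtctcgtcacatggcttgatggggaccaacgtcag

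Neither amplicon holds the STAT core motif TTCNNNGAA, which reads the same on both strands. Within 250 bases on either side there is 1 such match near the SOCS3 amplicon, 36 bases away at chr17:76356499-76356507, and there are 2 near the SOCS1 amplicon, 2 bases away at chr16:11327121-11327129 and 26 bases away at chr16:11327145-11327153. They are printed with 10 bases on each side, with the motif in capitals.
Near the SOCS3 amplicon: gaaatcagccTTCTTAGAAgggagggggg
Near the SOCS1 amplicon, closer match: cgagttggagTTCCAGGAAacgataacgc
Near the SOCS1 amplicon, farther match: acagccggtcTTCGGGGAAgtcgccgagt

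Promoter windows of RefSeq on GRCh38.p14, from 250 bases before to 50 bases after a start site, were at hand for 5 members (CISH, SOCS1, SOCS3, SOCS4 and SOCS6), not for SOCS2, SOCS5 and SOCS7. The CISH window at chr3:50611725-50612024 on the minus strand held 4 matches of TTCNNNGAA, at 241, 230, 129 and 112 bases before the start. Of 35116 RefSeq windows of that length, 7.66% held at least 1 match and 7 windows (0.0199%) held 4. The windows of SOCS1, SOCS3, SOCS4 and SOCS6 held 0 matches, a result for these windows only and not for other bases near these genes. The bases before the start are shown for CISH, with the matches in capitals, and for SOCS1 (chr16:11256205-11256454) and SOCS3 (chr17:78360926-78361175), the 2 members the study assayed, all on the minus strand. SOCS3 has 2 windows for different start sites, at chr17:78359618-78359917 and chr17:78360876-78361175, and the one shown lies farther upstream. Neither was placed against the GRCh37 start from which the SOCS3 amplicon distance is counted. The bases shown may therefore not be those just before that start.
CISH: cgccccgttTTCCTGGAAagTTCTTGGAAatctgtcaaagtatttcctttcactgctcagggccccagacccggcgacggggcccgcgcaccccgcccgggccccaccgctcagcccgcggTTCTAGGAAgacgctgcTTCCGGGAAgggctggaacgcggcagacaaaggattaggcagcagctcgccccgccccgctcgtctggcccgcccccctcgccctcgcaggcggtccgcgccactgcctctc
SOCS1: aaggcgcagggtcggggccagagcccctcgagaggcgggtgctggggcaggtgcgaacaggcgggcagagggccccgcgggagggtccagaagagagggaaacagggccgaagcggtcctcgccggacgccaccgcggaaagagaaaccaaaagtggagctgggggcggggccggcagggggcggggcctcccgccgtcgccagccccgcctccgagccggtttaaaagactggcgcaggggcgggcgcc
SOCS3: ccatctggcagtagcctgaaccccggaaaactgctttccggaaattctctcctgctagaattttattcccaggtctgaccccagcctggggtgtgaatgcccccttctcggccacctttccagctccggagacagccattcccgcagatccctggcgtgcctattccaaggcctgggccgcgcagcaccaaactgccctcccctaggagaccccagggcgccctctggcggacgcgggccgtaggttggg

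SOCS3 was the most abundant member in these cells. On the scale of CPM per kb of the canonical transcript, averaged over the 16 libraries, SOCS3 stood at 20.0, followed by SOCS5 at 5.48, SOCS4 at 4.99, SOCS7 at 4.29, SOCS2 at 2.11, SOCS6 at 1.79, SOCS1 at 0.962 and CISH at 0.711. The order below SOCS3 depended on the length used. Per kb of all annotated exons it was SOCS4 (4.89), SOCS7 (3.94), SOCS5 (3.49), SOCS6 (1.75), SOCS2 (0.778), SOCS1 (0.666) and CISH (0.284). SOCS3 had 2352 to 5256 counts per library, whereas SOCS1 had 33 to 135 and CISH 61 to 131. SOCS1 and CISH were therefore measured with the least precision. A level of 3 counts, the limit that a count of 0 allows, was far below every value of every member. Exons of SOCS2 overlap those of its antisense gene SOCS2-AS1 by 277 bases, those of CISH overlap MAPKAPK3 on the opposite strand by 218 bases, and those of SOCS5 overlap LINC01118 on the same strand by 160 bases. The strand setting of the counting is not given in the sources used here, so reads in these overlaps cannot be told apart.

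**Figure D1:**
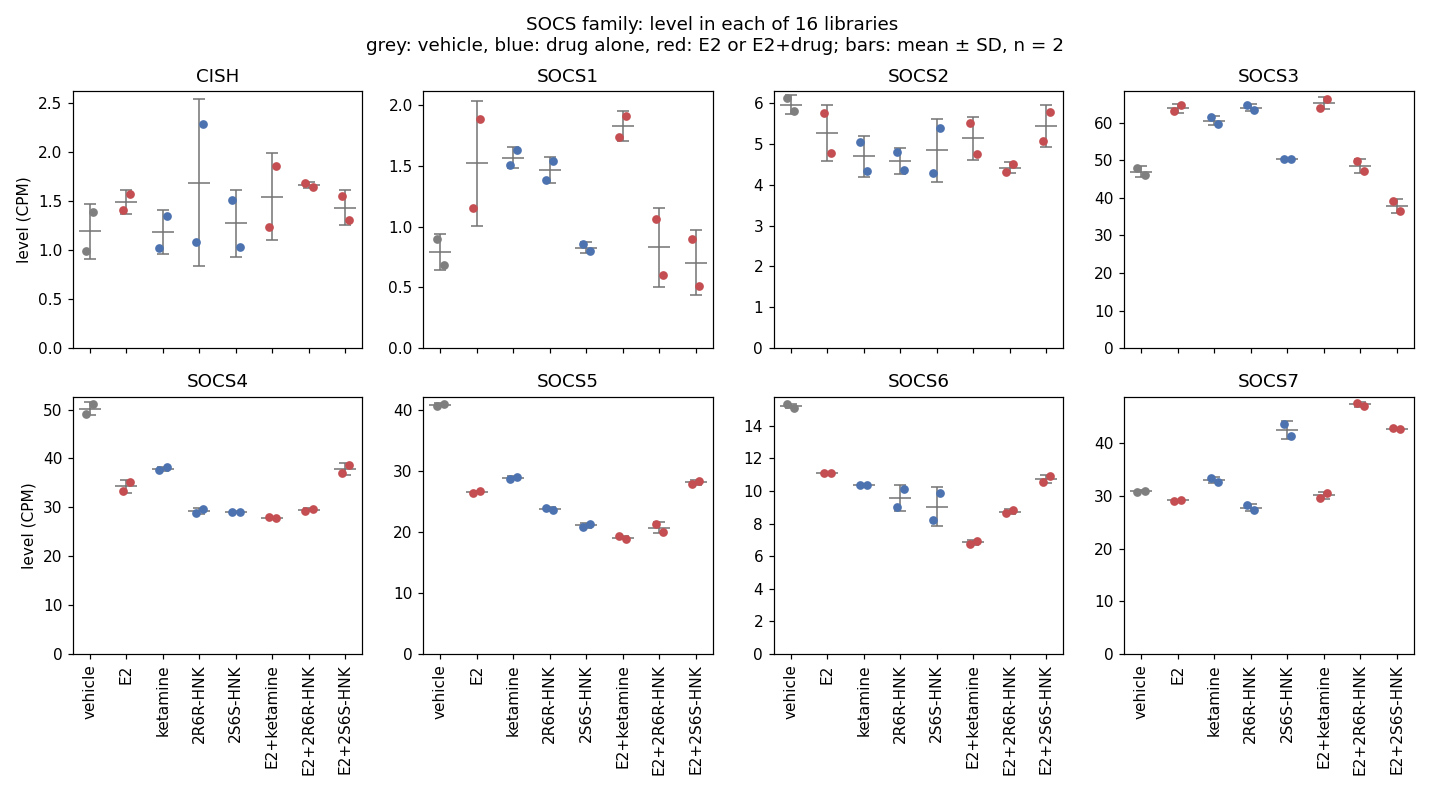
Level of each SOCS family member (CPM, linear axis from 0) in each of the 16 libraries, one panel per gene, with groups on the horizontal axis. Points are single libraries and bars are the mean ± SD of the 2 libraries of a group. SOCS4, SOCS5 and SOCS6 are highest in vehicle, SOCS3 is lowest under E2+2S6S-HNK, and SOCS7 is highest in the groups given 2S6S-HNK, E2+2R6R-HNK and E2+2S6S-HNK.

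Each treatment was compared with vehicle to ask whether the family responds to E2, to ketamine and to its metabolites. A member was called at an adjusted p under 0.05 in a quasi-likelihood fit of all 16 libraries (edgeR, Benjamini-Hochberg adjustment over the 16004 genes), with no limit on the fold change. E2 raised 2 members (SOCS1 and SOCS3) and lowered 3 (SOCS4, SOCS5 and SOCS6), where 29.9% of all genes tested were called higher and 32.7% lower. Ketamine raised SOCS1 and SOCS3 and lowered 4 members, SOCS2, SOCS4, SOCS5 and SOCS6, against 26.8% and 32.5% of all genes. Under 2R6R-HNK the same 2 members rose and 5 fell, SOCS7 being added, against 31.7% and 34.9%. Under 2S6S-HNK 2 members rose (SOCS3 and SOCS7) and 4 fell (SOCS2, SOCS4, SOCS5 and SOCS6), against 32.1% and 35.8%. E2+ketamine raised SOCS1 and SOCS3 and lowered SOCS4, SOCS5 and SOCS6, against 34.3% and 37.4%. E2+2R6R-HNK raised SOCS7 alone and lowered SOCS2, SOCS4, SOCS5 and SOCS6, against 33.4% and 36.3%. With E2+2S6S-HNK SOCS7 rose and 4 members fell (SOCS3, SOCS4, SOCS5 and SOCS6), against 24% and 35.7%.

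In all, 39 of the 56 member and treatment combinations were called, 12 higher and 27 lower, in experiments in which most genes tested were called. The 7 comparisons share the vehicle libraries. The log2 fold change exceeded 1 in size in 3 combinations, all under E2+ketamine, by SOCS1, SOCS5 and SOCS6. The median log2 fold change of the 8 members was between -0.26 and -0.12, beside medians of -0.06 to -0.0027 over all genes tested. With upper-quartile normalization it was -0.19 to -0.045, beside 0.027 to 0.063 over all genes, and in the corrected fit -0.34 to 0.0057, with a changed sign in 1 comparison. In a test for any difference among the 8 groups 7 of 8 members passed, as did 82.1% of all genes tested, and CISH did not (adjusted p = 0.365).

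One property of the libraries moved with these changes. Across the 15353 genes with an annotation, log2 fold changes were higher where exons were richer in G and C, in every comparison with vehicle, with Spearman correlations across genes, which are not independent replicates, of 0.44 (E2+2S6S-HNK) to 0.77 (E2+ketamine). The members spread over nearly the whole range of GC content, from SOCS4 at 35.6%, SOCS6 at 37.4% and SOCS5 at 41.3%, through SOCS2 at 50.1%, SOCS7 at 52.6% and CISH at 56.7%, to SOCS3 at 60.0% and SOCS1 at 69.1%. The 3 members with the lowest GC content fell in all 7 comparisons. Of the 2 with the highest, SOCS1 rose in 4, and SOCS3 rose in 5 and fell in 1. SOCS2, near the middle of all genes, fell in 4, SOCS7 rose in 3 and fell in 1, and CISH was called in none. The main values below are therefore set beside those from a fit with an offset for exon GC content and length, called the corrected fit. Because the offset takes out whatever tracks GC content, a response of the cells that did so would be lost with a bias of the libraries, and the 2 cannot be told apart. Of the 39 calls, 20 were made in the same direction in the corrected fit, which made 3 calls higher and 23 lower of 56, where it called 15.4% to 25.7% of all genes higher and 22.7% to 34.1% lower over the 7 comparisons.

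**Figure D2:**
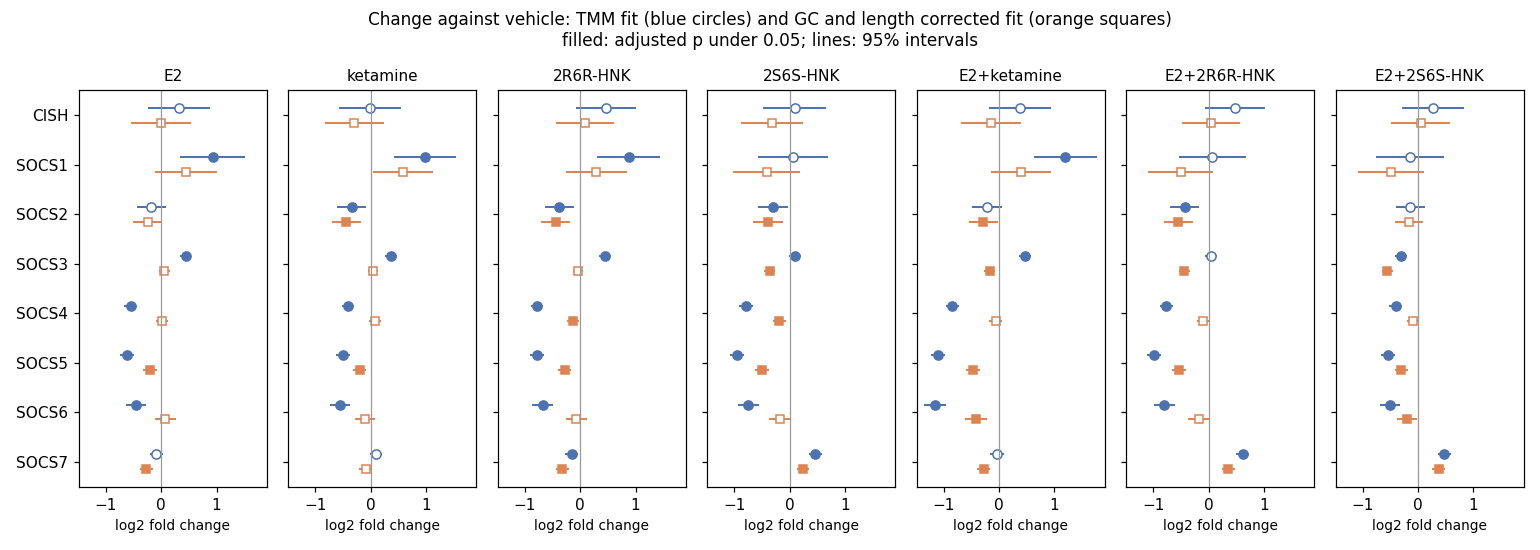
Log2 fold change against vehicle (horizontal axis) of the 8 members under the 7 treatments, from the TMM-normalized fit (blue circles) and from the fit corrected for exon GC content and length (orange squares). Lines are 95% intervals and filled symbols have an adjusted p under 0.05. SOCS5 stays lower with the correction in all 7 panels, the falls of SOCS4 and SOCS6 shrink or turn, and SOCS1 and SOCS3 shift to the left in all 7.

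SOCS3, which binds the gp130 receptor chain and shuts off JAKs there, was higher under E2, ketamine, 2R6R-HNK and E2+ketamine. Its level was 48.0 and 46.0 CPM in the vehicle libraries, 63.0 and 64.6 CPM with E2, 61.4 and 59.8 CPM with ketamine, 64.6 and 63.4 CPM with 2R6R-HNK, and 50.2 and 50.4 CPM with 2S6S-HNK. With E2 present it was 64.0 and 66.4 CPM with ketamine, 49.8 and 47.3 CPM with 2R6R-HNK, and 39.2 and 36.6 CPM with 2S6S-HNK. E2+2S6S-HNK was the only group entirely below vehicle, and E2+2R6R-HNK overlapped it. The order of group means ran from E2+ketamine (65.2 CPM) through 2R6R-HNK (64.0), E2 (63.8), ketamine (60.6), 2S6S-HNK (50.3), E2+2R6R-HNK (48.5) and vehicle (47.0) to E2+2S6S-HNK (37.9), where E2+ketamine overlapped 2R6R-HNK, which overlapped E2, and E2+2R6R-HNK overlapped vehicle.

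The log2 fold change of SOCS3 was 0.44 ± 0.04 (SE) with E2 (adjusted p = 9.56e-13), 0.37 ± 0.04 with ketamine, 0.45 ± 0.04 with 2R6R-HNK, 0.47 ± 0.04 with E2+ketamine, and -0.31 ± 0.04 with E2+2S6S-HNK (adjusted p = 3.75e-08). The rise of 0.10 ± 0.04 with 2S6S-HNK (adjusted p = 0.0479) lost its call on leaving out any of 12 of the 16 libraries. It also lost it without the filter on low counts (adjusted p = 0.0616). In the corrected fit SOCS3 was at 0.06 with E2 and 0.05 with ketamine, neither called, and at -0.04 with 2R6R-HNK. It was called lower in that fit with 2S6S-HNK (-0.36), E2+ketamine (-0.17), E2+2R6R-HNK (-0.44) and E2+2S6S-HNK (-0.56), whereas upper-quartile normalization called it higher with E2+2R6R-HNK (0.13, adjusted p = 0.00761). The sign of the SOCS3 change thus turned with the correction for 2R6R-HNK, 2S6S-HNK, E2+ketamine and E2+2R6R-HNK.

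SOCS1, which inhibits JAKs and is the main brake on interferon signaling, was low in these cells and moved with SOCS3. Its counts were 55 and 41 in vehicle, 72 and 111 with E2, 129 and 135 with ketamine, 107 and 88 with 2R6R-HNK, and 47 and 47 with 2S6S-HNK. With E2 present they were 103 and 112 with ketamine, 79 and 43 with 2R6R-HNK, and 73 and 33 with 2S6S-HNK. As CPM, the groups given E2, ketamine, 2R6R-HNK and E2+ketamine lay wholly above vehicle, and the other 3 overlapped it. Their means were 1.52 ± 0.52 (SD, n = 2), 1.57 ± 0.08, 1.46 ± 0.11 and 1.82 ± 0.12 CPM, against 0.794 ± 0.149 CPM in vehicle. SOCS1 rose by a log2 fold change of 0.93 ± 0.28 (SE) with E2, 0.98 ± 0.27 with ketamine, 0.87 ± 0.28 with 2R6R-HNK and 1.20 ± 0.27 with E2+ketamine (adjusted p = 0.00322, 0.00156, 0.00481 and 0.000118). In the E2 group 1 library carried much of the rise, since without E2 replicate 2 the log2 fold change was 0.54 (adjusted p = 0.179). Without vehicle replicate 2 the calls under E2 and 2R6R-HNK were lost (log2 fold changes of 0.75 and 0.70, adjusted p = 0.0542 and 0.0696). None of the 4 rises was called in the corrected fit, where the log2 fold changes were 0.45, 0.59, 0.29 and 0.39.

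Over the 16 libraries the log2 CPM of SOCS1 and SOCS3 had a Pearson correlation of 0.88, a description of libraries that share treatments, depth and the GC trend.

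CISH and SOCS2, the members best known as feedback from STAT5 and as restraints on growth hormone and interleukin 2 signaling, had no rise that was called. CISH lay between 0.997 and 2.29 CPM and was called in none of the 7 comparisons. Its log2 fold changes ran from -0.01 with ketamine (95% interval -0.54 to 0.53) to 0.48 with E2+2R6R-HNK (-0.04 to 1.01, adjusted p = 0.0959), and these intervals include changes of the size seen in SOCS3. With E2+2R6R-HNK CISH was called higher by edgeR on the compared groups alone (0.50, adjusted p = 0.0469), without the filter on low counts (0.49, adjusted p = 0.0427), with upper-quartile normalization (0.56, adjusted p = 0.0474) and without vehicle replicate 2 (0.74, adjusted p = 0.0440). Corrected for GC content and length it was at 0.040 in that comparison (adjusted p = 0.905), and at -0.32 to 0.087 over all 7, with no call. The 2R6R-HNK libraries of CISH were the farthest apart, at 1.09 and 2.29 CPM. Without 2R6R-HNK replicate 1 the log2 fold change with 2R6R-HNK was 0.94 and was called (adjusted p = 0.00272), and without replicate 2 it was -0.13 (adjusted p = 0.731).

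SOCS2 was highest in vehicle, at 6.11 and 5.79 CPM, and no treated library of any group reached the lower of these. The margin was small, since E2+2S6S-HNK replicate 2 was at 5.785 CPM beside 5.790 CPM in vehicle replicate 2. How often other genes separate from vehicle in this way was not counted, for this or any other member. The lowest group was E2+2R6R-HNK, at 4.32 and 4.51 CPM. SOCS2 fell by 0.34 ± 0.12 on the log2 scale with ketamine, by 0.37 ± 0.12 with 2R6R-HNK, by 0.30 ± 0.13 with 2S6S-HNK and by 0.43 ± 0.12 with E2+2R6R-HNK (adjusted p = 0.0126, 0.00707, 0.0333 and 0.00178). Its GC content is near the middle of all genes, and the corrected fit gave similar values of -0.44, -0.44, -0.39 and -0.55, all called, and also called E2+ketamine (-0.28). Leaving out vehicle replicate 1 ended the calls under ketamine (-0.30), 2R6R-HNK (-0.33) and 2S6S-HNK (-0.26), and the last was also lost without vehicle replicate 2 (-0.34) and without 2S6S-HNK replicate 1 (-0.15). Ketamine replicate 2 and 2R6R-HNK replicate 2 each decided the call of their own group (-0.24 and -0.31 without them). With DESeq2 the calls under ketamine and 2S6S-HNK were lost (Benjamini-Hochberg adjusted p = 0.0700 and 0.136), as they were with upper-quartile normalization (0.0593 and 0.114). The call under 2S6S-HNK was also lost with edgeR on the compared groups alone (adjusted p = 0.0540) and with DESeq2 size factors (0.0562).

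SOCS5, which dampens epidermal growth factor receptor and interleukin 4 receptor signaling, showed the largest mean fall over the 7 comparisons among the members. Its level was 40.7 and 41.0 CPM in vehicle, 26.4 and 26.6 CPM with E2, 28.7 and 29.0 CPM with ketamine, 23.97 and 23.5 CPM with 2R6R-HNK, and 20.8 and 21.3 CPM with 2S6S-HNK. With E2 present it was 19.3 and 18.9 CPM with ketamine, 21.3 and 20.0 CPM with 2R6R-HNK, and 27.8 and 28.4 CPM with 2S6S-HNK. All treated libraries lay below both vehicle libraries, and of the neighbouring groups in the order of means only 2S6S-HNK and E2+2R6R-HNK overlapped. The log2 fold change ran from -0.50 ± 0.05 with ketamine to -1.10 ± 0.06 with E2+ketamine (adjusted p = 1.02e-23). SOCS5 was the member that kept a call in the same direction in all 7 comparisons in the corrected fit, at -0.20 (ketamine) to -0.53 (E2+2R6R-HNK). Genes within 1% of its GC content had median log2 fold changes of -0.69 to -0.29.

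SOCS4, the closest relative of SOCS5, fell in all 7 comparisons. It stood at 49.2 and 51.1 CPM in vehicle, 33.3 and 35.2 CPM with E2, 37.6 and 38.2 CPM with ketamine, 28.8 and 29.7 CPM with 2R6R-HNK, and 29.1 and 29.0 CPM with 2S6S-HNK. With E2 it stood at 28.0 and 27.7 CPM with ketamine, 29.3 and 29.7 CPM with 2R6R-HNK, and 37.04 and 38.7 CPM with 2S6S-HNK. Every treated library was below vehicle, where E2+2S6S-HNK overlapped ketamine, and E2+2R6R-HNK, 2R6R-HNK and 2S6S-HNK overlapped one another in turn. The log2 fold change of SOCS4 ran from -0.41 ± 0.05 with ketamine to -0.85 ± 0.05 with E2+ketamine. The exon GC content of SOCS4 is at percentile 1.61 of the genes tested, and in the corrected fit it was called lower in 2 comparisons, 2R6R-HNK (-0.13) and 2S6S-HNK (-0.19). In the other 5 it was at -0.10 to 0.07 and not called.

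SOCS6, which binds activated receptor tyrosine kinases such as KIT and the insulin receptor pathway, also fell in all 7 comparisons. Vehicle libraries held 15.3 and 15.1 CPM of SOCS6, E2 libraries 11.1 and 11.1 CPM, ketamine libraries 10.4 and 10.4 CPM, 2R6R-HNK libraries 8.99 and 10.1 CPM, and 2S6S-HNK libraries 8.21 and 9.87 CPM. In the presence of E2 the values were 6.74 and 6.94 CPM with ketamine, 8.64 and 8.83 CPM with 2R6R-HNK, and 10.6 and 10.9 CPM with 2S6S-HNK. The E2+ketamine libraries were below all others. The log2 fold change of SOCS6 ran from -0.46 ± 0.08 with E2 to -1.15 ± 0.09 with E2+ketamine (adjusted p = 1.14e-16). In the corrected fit it was called lower with E2+ketamine (-0.41) and with E2+2S6S-HNK (-0.21), and it was at -0.18 to 0.07 without a call in the other 5.

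SOCS7, which holds adaptor proteins such as NCK and is tied to insulin and prolactin signaling, rose in 3 comparisons and fell in 1. It stood at 30.8 and 31.0 CPM in vehicle, 29.1 and 29.2 CPM with E2, 33.5 and 32.6 CPM with ketamine, 28.3 and 27.3 CPM with 2R6R-HNK, and 43.8 and 41.4 CPM with 2S6S-HNK. Its values with E2 present were 29.6 and 30.6 CPM with ketamine, 47.7 and 47.1 CPM with 2R6R-HNK, and 42.9 and 42.7 CPM with 2S6S-HNK. The libraries of these last 2 groups and of 2S6S-HNK lay above all others. SOCS7 rose by a log2 fold change of 0.46 ± 0.05 with 2S6S-HNK, 0.62 ± 0.05 with E2+2R6R-HNK and 0.47 ± 0.05 with E2+2S6S-HNK (adjusted p = 8.36e-12, 2.45e-16 and 5.46e-12). All 3 rises were called in the corrected fit, at 0.24, 0.36 and 0.37. With 2R6R-HNK alone it fell by 0.15 ± 0.05 on the log2 scale (adjusted p = 0.00660), and by 0.33 in the corrected fit, which also called it lower with E2 (-0.26) and E2+ketamine (-0.28). The fall under 2R6R-HNK was lost without 2R6R-HNK replicate 2 (-0.13), with DESeq2 (-0.11) and with upper-quartile normalization (-0.08). With ketamine SOCS7 was at 0.10 and not called, and 5 alternative settings called it higher, at 0.11 to 0.18, whereas the corrected fit put it at -0.091 without a call.

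**Figure D3:**
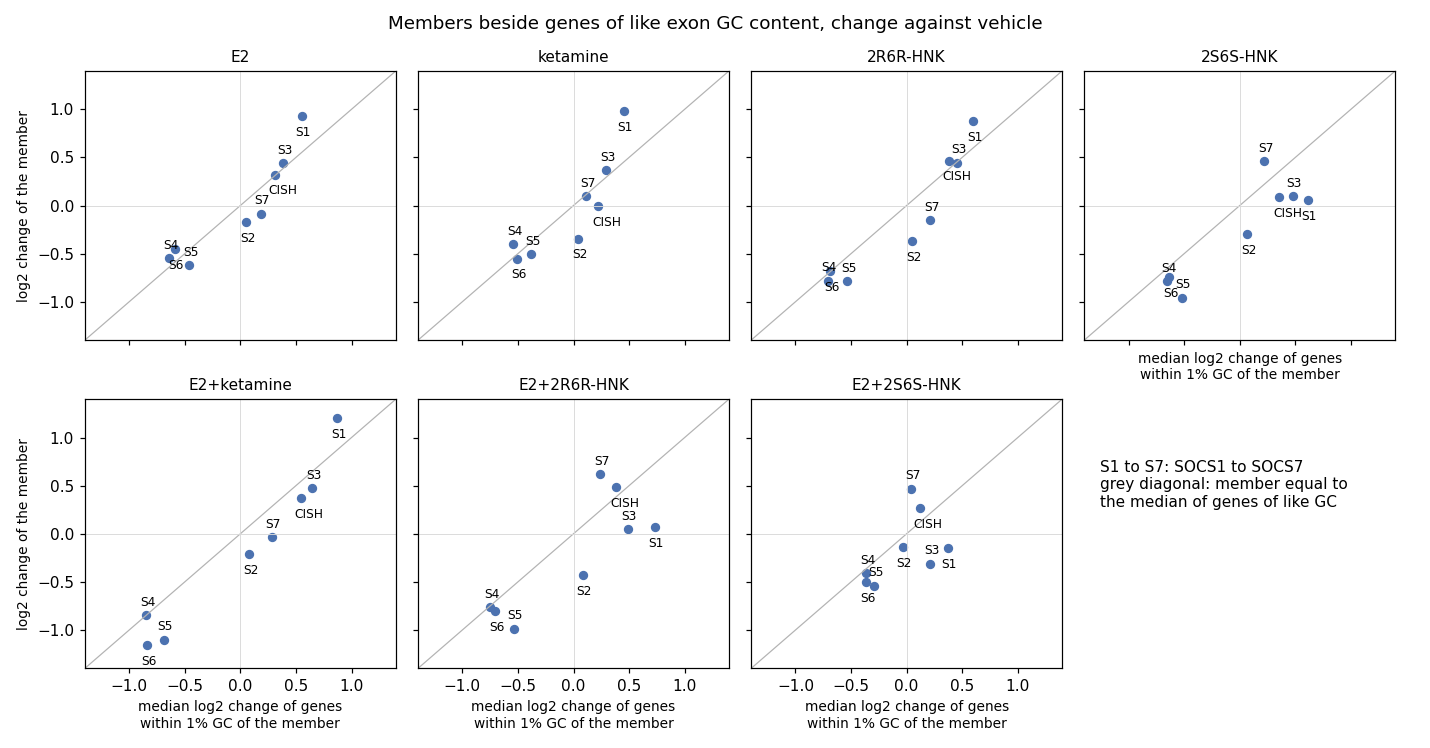
Log2 fold change against vehicle of each member (vertical axis) beside the median log2 fold change of all genes whose exon GC content is within 1% of the member's (horizontal axis), one panel per treatment. The diagonal marks a member equal to that median. SOCS4 lies near the diagonal throughout, SOCS5 and SOCS2 lie below it in all 7 panels, and SOCS7 lies above it under 2S6S-HNK, E2+2R6R-HNK and E2+2S6S-HNK.

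The members were also set beside genes of like GC content, without any offset. Genes within 1% of the GC content of SOCS3 (927 genes) had a median log2 fold change of 0.38 with E2, 0.29 with ketamine and 0.45 with 2R6R-HNK, where SOCS3 was at 0.44, 0.37 and 0.45. With 2S6S-HNK, E2+2R6R-HNK and E2+2S6S-HNK these genes were at 0.48, 0.49 and 0.21, and SOCS3 was at 0.10, 0.05 and -0.31. With E2+ketamine SOCS3 was at 0.47 beside 0.65. SOCS1 was above its 83 neighbours in the 4 comparisons in which it was called, with ketamine for example at 0.98 beside 0.45, and below them in the other 3. SOCS6 was at -1.15 with E2+ketamine where its 877 neighbours were at -0.84, and at -0.68 with 2R6R-HNK where they were at -0.69. The 383 genes around SOCS4 had medians of -0.85 to -0.37, beside -0.85 to -0.41 for SOCS4 itself. SOCS7 was at -0.15 with 2R6R-HNK where its 962 neighbours in GC content were at 0.21, and at 0.62 with E2+2R6R-HNK where they were at 0.24.

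Whether E2 alters the response to each drug was asked with an interaction, in which the drug's log2 fold change against vehicle was subtracted from that of E2+drug against E2. For ketamine 1 member was called, SOCS3, where 37.5% of all genes tested were called. For 2R6R-HNK 6 members were called (56.6% of all genes) and for 2S6S-HNK 5 members (65.1%). All 3 interactions use the same vehicle and E2 libraries, so their signs are not independent of each other. SOCS3 had an interaction below 0 for each drug. Ketamine raised it by a log2 fold change of 0.37 (95% interval 0.28 to 0.45) without E2, and the change was 0.03 (-0.05 to 0.12) with E2, an interaction of -0.33 ± 0.06 (adjusted p = 9.49e-06). For 2R6R-HNK the values were 0.45 without E2 and -0.39 with E2, an interaction of -0.84 ± 0.06 (adjusted p = 5.82e-17). For 2S6S-HNK they were 0.10 and -0.75, an interaction of -0.85 ± 0.06 (adjusted p = 3.86e-17). SOCS3 kept an interaction below 0 in the corrected fit for all 3 drugs, at -0.28, -0.46 and -0.26, each called.

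SOCS1 had interactions of -1.73 ± 0.39 with 2R6R-HNK (adjusted p = 0.000127) and -1.13 ± 0.41 with 2S6S-HNK (adjusted p = 0.0137). In the corrected fit they were -1.24, called, and -0.53, not called. The interaction with 2S6S-HNK lost its call without vehicle replicate 2 (-0.95), E2 replicate 2 (-0.74) or E2+2S6S-HNK replicate 2 (-0.81). With ketamine the value for SOCS1 was -0.71 ± 0.37 (adjusted p = 0.135), which was called without E2 replicate 1 (-1.02, adjusted p = 0.0383) and was -0.32 without E2 replicate 2 (adjusted p = 0.615).

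SOCS4, SOCS5 and SOCS6 had interactions above 0 with both metabolites. With 2S6S-HNK the log2 fold change of SOCS5 was -0.96 (-1.07 to -0.85) without E2 and 0.08 (-0.03 to 0.19) with E2, an interaction of 1.04 ± 0.08 (adjusted p = 5.67e-17). SOCS4 had an interaction of 0.93 ± 0.07 and SOCS6 of 0.70 ± 0.12 with the same drug. With 2R6R-HNK the interactions were 0.56 ± 0.07 for SOCS4, 0.42 ± 0.08 for SOCS5 and 0.33 ± 0.12 for SOCS6, the last of which lost its call without 2R6R-HNK replicate 1 (0.25, adjusted p = 0.126), with DESeq2 (0.29, adjusted p = 0.0749) and with upper-quartile normalization (0.27, adjusted p = 0.0511). In the corrected fit SOCS5 with 2S6S-HNK was the only one of these 6 that was called, at 0.41, and SOCS6 was below 0 for both drugs (-0.18 and -0.10), as was SOCS5 with 2R6R-HNK (-0.04). SOCS7 had an interaction of 0.85 ± 0.07 with 2R6R-HNK (adjusted p = 4.31e-15), from -0.15 without E2 to 0.70 with E2, and it was 0.95 in the corrected fit. With 2S6S-HNK SOCS7 was at 0.46 without E2 and 0.55 with E2, and the interaction was 0.09 ± 0.07 (adjusted p = 0.246). The corrected fit called 3 further interactions, SOCS6 with ketamine (-0.38), SOCS2 with 2S6S-HNK (0.47) and SOCS7 with 2S6S-HNK (0.39). In the main fit SOCS2 with 2S6S-HNK was at 0.33 ± 0.18 (adjusted p = 0.0917), and at 0.19 to 0.51 on leaving out 1 library. Of all genes, the corrected fit called 36.8% (ketamine), 43.4% (2R6R-HNK) and 40.3% (2S6S-HNK) in these interactions.

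**Figure D4:**
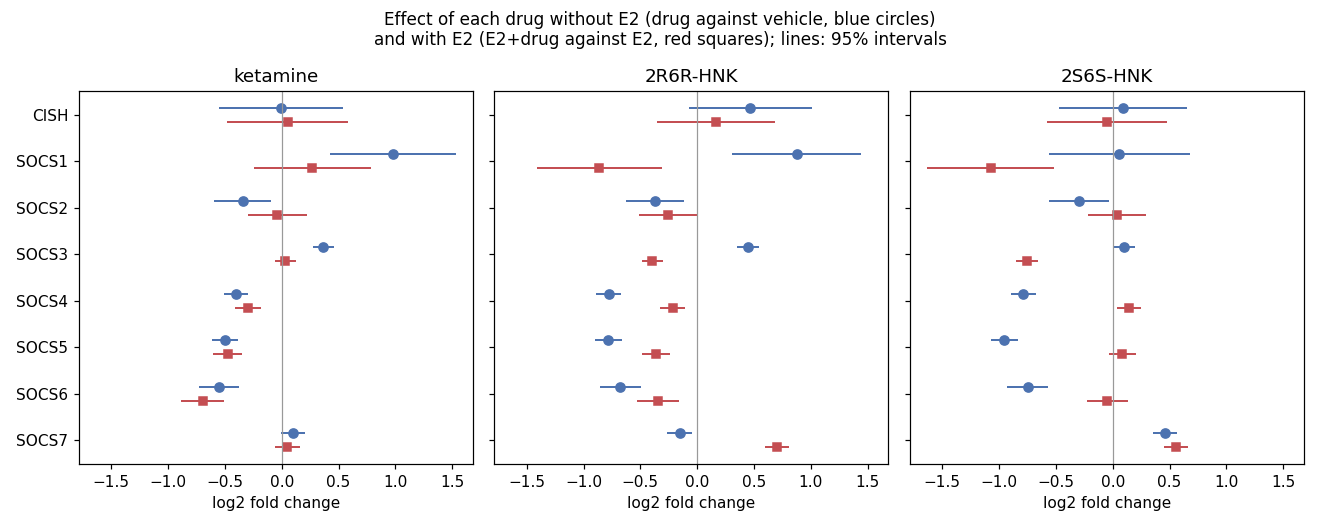
Log2 fold change (horizontal axis) of each member for each drug without E2 (drug against vehicle, blue circles) and with E2 (E2+drug against E2, red squares), with 95% intervals. SOCS3 is further left with E2 for all 3 drugs, and SOCS7 crosses from below 0 to above 0 for 2R6R-HNK.

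Ketamine, 2R6R-HNK and 2S6S-HNK were compared with each other at the same dose and time, without and with E2, in 6 pairs and 48 tests of members. Of these, 28 were called, and the same 28 were called when p-values were adjusted over all genes and all 6 pairs together. Ketamine against 2R6R-HNK gave 3 called members without E2, where 45.4% of all genes were called, and 4 with E2 (52%). Ketamine against 2S6S-HNK gave 5 without E2 (46.1%) and 6 with E2 (66.8%). The mirror-image metabolites differed in 4 members without E2 (43.5%) and 6 with E2 (54%).

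Without E2, SOCS3 was higher under 2R6R-HNK than under 2S6S-HNK by 0.35 ± 0.04 on the log2 scale (adjusted p = 2.42e-09) and SOCS7 was lower by 0.61 ± 0.05 (adjusted p = 6.33e-15). SOCS1 was higher by 0.82 ± 0.28, a call that was lost without 2R6R-HNK replicate 2 (0.75) or 2S6S-HNK replicate 2 (0.76). SOCS5 was higher by 0.17 ± 0.06, which was lost without the first replicate of either group (0.16 in both cases). These 4 differences were all called in the corrected fit, which called 44.8% of all genes. They were at 0.32 for SOCS3, -0.57 for SOCS7, 0.70 for SOCS1 and 0.22 for SOCS5. SOCS4 did not differ between the mirror-image forms beyond the spread, with a difference of 0.01 and a 95% interval of -0.09 to 0.11. SOCS6 was at 0.07 (-0.11 to 0.25), SOCS2 at -0.08 (-0.33 to 0.18) and CISH at 0.38 (-0.15 to 0.91), and CISH was called without 2R6R-HNK replicate 1 (0.85) and turned sign without replicate 2 (-0.22).

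With E2, SOCS3 was again higher under 2R6R-HNK than under 2S6S-HNK, by 0.36 ± 0.04, and SOCS7 was higher by 0.15 ± 0.05. SOCS4, SOCS5, SOCS6 and SOCS2 were lower under 2R6R-HNK, by 0.36, 0.45, 0.30 and 0.29 on the log2 scale. In the corrected fit, which called 29.7% of all genes, 3 of these 6 were called. They were SOCS3 at 0.11, SOCS5 at -0.23 and SOCS2 at -0.38, and SOCS7 was at -0.01. The SOCS2 difference was lost without either E2+2R6R-HNK library (-0.26 and -0.32) or E2+2S6S-HNK replicate 2 (-0.20), and with DESeq2 (-0.28, Benjamini-Hochberg adjusted p = 0.104). SOCS1 was at 0.21 (-0.37 to 0.80) and CISH at 0.21 (-0.29 to 0.72).

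Ketamine without E2 gave a higher SOCS4 (0.37 ± 0.05), SOCS5 (0.28 ± 0.05) and SOCS7 (0.25 ± 0.05) than 2R6R-HNK. Of these, SOCS4 (0.20) and SOCS7 (0.23) were called in the corrected fit, which called 38.8% of all genes. For SOCS3 the difference from 2R6R-HNK was -0.08 (-0.16 to 0.00) and for SOCS1 0.10 (-0.39 to 0.60). The SOCS3 difference was called by edgeR on the compared groups alone (-0.090, adjusted p = 0.0264), and in the corrected fit it was 0.086 and that of SOCS1 0.29, neither called. Against 2S6S-HNK without E2, ketamine gave a higher SOCS1 (0.92 ± 0.27), SOCS3 (0.27 ± 0.04), SOCS4 (0.38 ± 0.05) and SOCS5 (0.45 ± 0.05) and a lower SOCS7 (-0.37 ± 0.05). All 5 were called with the same sign in the corrected fit, which called 41.2% of all genes. SOCS6 was at 0.20 (adjusted p = 0.0583), and at 0.08 in the corrected fit, neither called. It was called by edgeR on the compared groups alone (0.21, adjusted p = 0.0446) and with upper-quartile normalization (0.20, adjusted p = 0.0478). With E2, ketamine gave a higher SOCS1 and SOCS3 than either metabolite. SOCS1 was higher by 1.13 ± 0.26 against 2R6R-HNK and 1.34 ± 0.27 against 2S6S-HNK, and SOCS3 by 0.43 ± 0.04 and 0.78 ± 0.04. SOCS7 was lower with E2+ketamine than with E2+2R6R-HNK (-0.65 ± 0.05) and E2+2S6S-HNK (-0.51 ± 0.05). These 6 differences of SOCS1, SOCS3 and SOCS7 with E2 were called with the same sign in the corrected fit. That fit called 50.4% of all genes against 2R6R-HNK and 55.8% against 2S6S-HNK. SOCS6 was lower with E2+ketamine than with E2+2R6R-HNK (-0.35 ± 0.09) and E2+2S6S-HNK (-0.65 ± 0.09), and SOCS4 (-0.44) and SOCS5 (-0.56) were lower than with E2+2S6S-HNK. Of these 4, SOCS6 against 2R6R-HNK (-0.23) and SOCS5 (-0.18) were called in the corrected fit. There SOCS6 against 2S6S-HNK was at -0.20 (adjusted p = 0.0517), called only with the replicate block added, and SOCS4 was at 0.03.

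The genes of the wider pathway were counted by list, beside 24% to 34.3% of all genes called higher and 32.5% to 37.4% called lower over the 7 comparisons, and nothing particular to a list is read from its counts. Of 10 genes for SOCS box ligase partners, 7 were called lower in each of the 7 comparisons and 2 or 3 higher, with list medians of -0.42 to -0.22. CUL5, the cullin scaffold of these ligases, was at 59.8 CPM in vehicle and fell in all 7 comparisons, by 0.46 to 0.93 on the log2 scale. CUL2, a related scaffold, fell by 0.68 to 1.11. Elongin B, listed as TCEB2, rose in all 7 comparisons by log2 fold changes of 0.12 to 0.80, and UBE2M, which attaches NEDD8 to cullins, rose by 0.11 to 0.72. In the corrected fit CUL2 (-0.58 to -0.28) stayed lower in 7 comparisons and CUL5 (-0.21 to -0.07) in 6, TCEB2 was called higher in 4 and lower in 1, and UBE2M lower in 4 and higher in none. The list median in that fit was -0.19 to 0.06, with a changed sign in 2 comparisons. Among 21 other SOCS box proteins tested, 6 to 8 were called higher and 1 to 6 lower, with medians of -0.05 to 0.14. With upper-quartile normalization the medians were 0.04 to 0.21, with a changed sign in 3 comparisons. In the corrected fit they were -0.08 to 0.05, with a changed sign in 2. SPSB3, which carries a SPRY domain before its SOCS box, rose in all 7 comparisons by 0.57 to 1.12, and ASB13, an ankyrin repeat member, rose in 6. The corrected fit called SPSB3 higher in 6, at 0.087 to 0.34, and ASB13 in 3, at -0.10 to 0.71. ASB7 fell in 6 comparisons and WSB2 in 4, but the corrected fit called ASB7 higher in 4 and lower in none, and WSB2 higher in 2 and lower in 2.

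Of the kinases and transcription factors that SOCS proteins restrain, 11 were tested, 6 or 7 of which were called higher and 1 to 3 lower in each comparison, with list medians of 0.25 to 0.77. STAT5A, which drives CISH and SOCS2 in other cells, was at 4.03 CPM in vehicle and rose in all 7 comparisons, by 0.65 to 1.24 on the log2 scale. STAT2, the interferon receptor factor, rose by 0.48 to 0.94. JAK1, the kinase that SOCS1 and SOCS3 block, stood at 129.8 CPM in vehicle and fell in all 7, by 0.32 to 0.73, and JAK2 fell in 6. STAT5A, STAT2 and JAK1 kept calls in the same direction in all 7 comparisons in the corrected fit, and JAK2 in 2. The list median stayed above 0 there, at 0.14 to 0.53.

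Among 30 cytokine receptor chains tested, 9 to 15 were called higher and 5 to 10 lower. IL6ST, which encodes gp130, the receptor chain to which SOCS3 binds, was at 137.0 CPM in vehicle and fell in all 7 comparisons by 0.494 to 0.995 on the log2 scale, and by 0.11 to 0.26 in the corrected fit. IL7R fell by 0.88 to 1.59, and by 0.65 to 1.01 in the corrected fit. IL27RA and EPOR, receptors for interleukin 27 and erythropoietin, rose in all 7 comparisons, and in the corrected fit in 3 and 5. Of 11 ligands tested, 3 to 8 were called higher and 0 to 3 lower. LIF, a gp130 ligand, was called higher in 4 comparisons and lower in 1, with log2 fold changes of -0.31 to 0.78, and in the corrected fit higher in 3 and lower in 3. CTF1 was higher in 6 but in none in the corrected fit.

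Of 18 other negative regulators of cytokine signaling tested, 5 to 11 were called higher and 4 to 10 lower. The list median was -0.16 to 0.18, and its sign changed in 4 comparisons in the corrected fit. PTPN11, the phosphatase SHP2 that shares a docking site on gp130 with SOCS3, was at 320.5 CPM in vehicle and fell in all 7 comparisons by 0.72 to 1.23 on the log2 scale. PTPN2, a phosphatase acting on JAK1 and STATs, fell by 0.48 to 0.98. SIGIRR, which restrains interleukin 1 receptors, rose by 0.61 to 1.14, and USP18, which restrains the interferon receptor, rose by 0.29 to 1.07. PTPN11, PTPN2 and USP18 kept their calls in all 7 comparisons in the corrected fit and SIGIRR in 6.

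Of 25 genes known to be induced by STAT3 or STAT5 alongside SOCS genes, 10 to 19 were called higher and 4 to 7 lower, with list medians of 0.08 to 0.51. CEBPD, a transcription factor of the acute phase response, stood at 4.67 CPM in vehicle and rose by 1.04 to 2.04, and by 0.59 to 1.34 in the corrected fit. NNMT, a nicotinamide methyltransferase, rose by 0.33 to 0.95. CCND1, which encodes cyclin D1, fell by 0.51 to 1.01 and HIF1A, a hypoxia factor, by 0.52 to 0.92. CEBPD, NNMT and CCND1 kept their calls in all 7 comparisons in the corrected fit and HIF1A in 6. The list median in that fit was -0.12 to 0.14. Of 24 proteins outside the pathway that SOCS boxes are reported to target, 6 to 8 were called higher and 10 to 13 lower. RASA1, a GTPase-activating protein for RAS, and the receptor kinase MET fell in all 7 comparisons in both fits. PTK2B and RELA rose in all 7, and each in 4 in the corrected fit, which called RELA lower in 1.

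**Figure D5:**
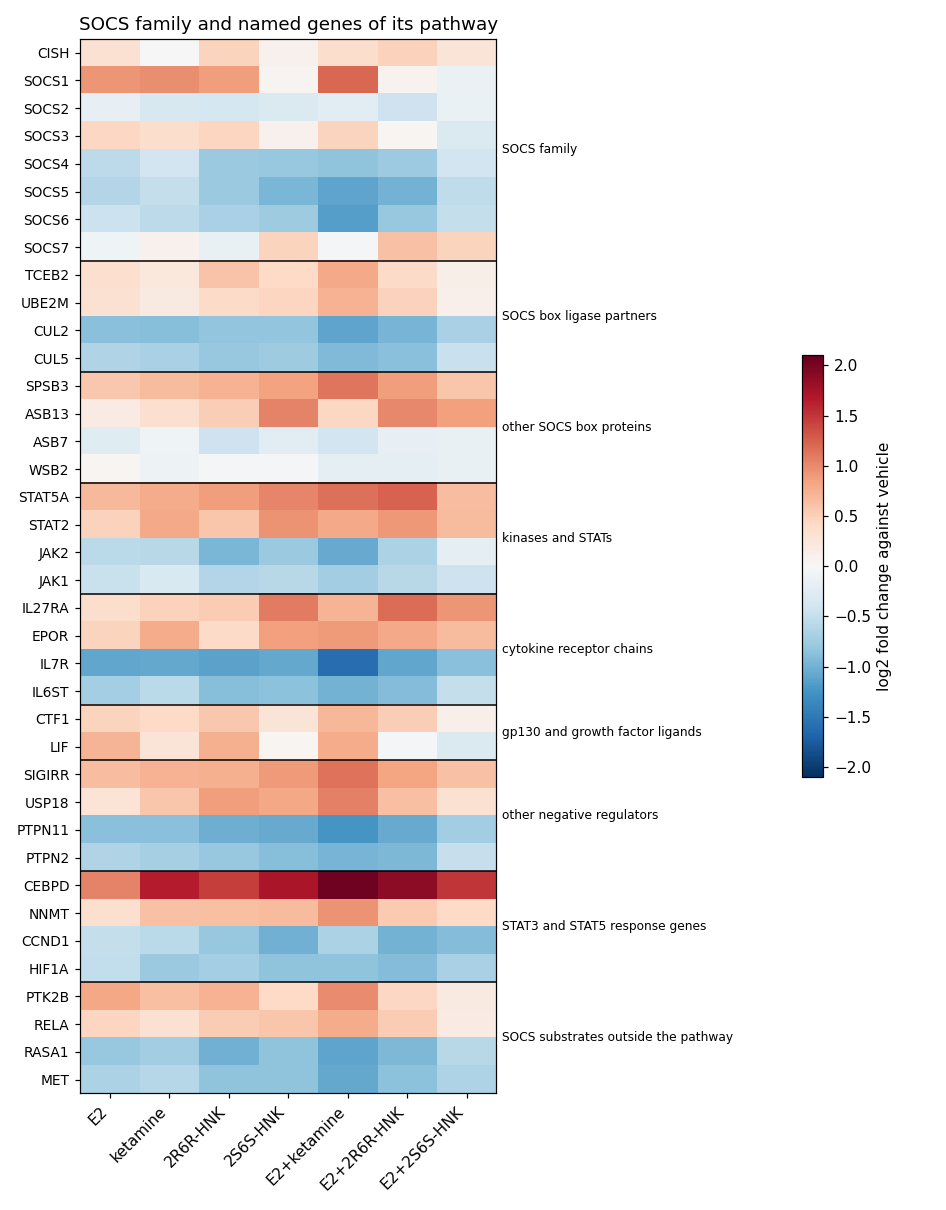
Log2 fold change against vehicle (colour scale, red higher and blue lower) of the 8 members and of the named genes of each pathway list in the 7 comparisons (columns). CEBPD is red throughout, at 1.04 to 2.04, and IL7R blue throughout, at -1.59 to -0.88.

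Genes whose level most resembled a member's over the 16 libraries were named by the Pearson correlation of log2 CPM. SOCS5 was most like PTP4A2 (r = 0.994), NAP1L4 and CSNK1A1, and SOCS4 was most like GNB4 (r = 0.991), HS2ST1 and SECISBP2L. For SOCS7 they were DENND5A (r = 0.981), WDR45B and COL4A5, and for SOCS3 MCM5 (r = 0.976), LRRC32 and TRIM14. SOCS6 was most like KCTD3 (r = 0.972), NPR3 and IKBKAP, and SOCS1 was most like GJD3 (r = 0.939), IER5L and MLPH. SOCS2 (DUSP12, MRPL32 and LRRC37A, r = 0.766 for the first) and CISH (MED26, CROCCP2 and COL27A1, r = 0.680 for the first) had no gene as close. With Spearman correlation GJD3 stayed first for SOCS1, the same 3 genes were named for CISH, and different genes led for the other 6 members. Within the family SOCS4, SOCS5 and SOCS6 correlated at 0.90 to 0.97, and SOCS7 correlated at -0.72 with SOCS3. All of these are descriptions of 16 libraries in 8 groups that share treatments and the GC trend.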

How the data were processed

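Groups (8, with 2 RNA-seq libraries in each) follow the treatment labels of the HMC3 samples, and libraries were prepared with the Ovation RNA-seq system v2 kit. The authors aligned paired reads to hg19 and deposited raw counts per gene from uniquely mapped pairs; the submitters' processing notes name TopHat2 2.0.14, Bowtie2 2.2.6 and featureCounts 1.4.6. All 16 count columns were used, and 0 were left out. Counts were TMM-normalized, filtered with filterByExpr and fitted with 1 mean per group in edgeR 4.0.16 (R 4.3.3, limma 3.58.1), with the quasi-likelihood test and Benjamini-Hochberg adjustment over 16004 genes, and a call at an adjusted p under 0.05. The script was tested on simulated data. Totals of 55300614 to 81646165 counts per library set the precision. Intervals (95%) are for the log2 fold change and rest on the spread between libraries within groups, estimated over all 16. Standard errors were derived from the log2 fold change and the F statistic of the quasi-likelihood test.

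Exon GC content and length came from GENCODE gene models on GRCh37, matched by symbol for 21539 genes and by an older symbol for 1493, with 2338 unmatched. The corrected fit used loess offsets (span 0.5) on both. Promoter windows were from RefSeq. Alternatives were DESeq2 1.42.0, other filters and normalizations, the replicate number as a block, halved counts and leaving out each library. Counts were halved because 65.8% of counts from 1 to 9 were even, so that the counts of a gene may not all be independent fragments.

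The members and gene lists were chosen with earlier results of these data known. From each list were named up to 2 genes with the largest mean rise and 2 with the largest mean fall, among those averaging 5 CPM or more and called in the same direction in at least 4 of 7 comparisons. For each member the 3 genes of at least 5 CPM with the highest Pearson correlation of log2 CPM (prior count 2) were named. One microglia marker of the lists, and the summed level that rests on it, are not reported here.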

Additional observations from a re-analysis of the deposited data

Results flagged for a closer look

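The effect of a drug differed with and without E2, by the interaction test of edgeR (Benjamini-Hochberg adjustment over all genes tested), for 12 of 24 member and drug combinations, where 37.5% (ketamine), 56.6% (2R6R-HNK) and 65.1% (2S6S-HNK) of all genes were called. With ketamine this was SOCS3, with a log2 interaction of -0.33. With 2R6R-HNK these were SOCS1 (-1.73), SOCS3 (-0.84), SOCS4 (0.56), SOCS5 (0.42), SOCS6 (0.33) and SOCS7 (0.85). With 2S6S-HNK these were SOCS1 (-1.13), SOCS3 (-0.85), SOCS4 (0.93), SOCS5 (1.04) and SOCS6 (0.70). The call of SOCS6 with 2R6R-HNK was lost with DESeq2 (0.29) and with upper-quartile normalization (0.27). In the fit corrected for GC content and length 6 of the 12 were called in the same direction. These were SOCS3 with all 3 drugs, SOCS1 and SOCS7 with 2R6R-HNK and SOCS5 with 2S6S-HNK. That fit called 36.8% (ketamine), 43.4% (2R6R-HNK) and 40.3% (2S6S-HNK) of all genes.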

How the results depend on the processing

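Of 128 member and comparison combinations, no value that was called changed sign under DESeq2, either filter, upper-quartile normalization, DESeq2 size factors, edgeR on the compared groups alone or halved counts. DESeq2 ended 5 calls and made 1, and upper-quartile normalization ended 4 and made 5. Leaving out 1 library ended 34 and made 9 of 2048 calls or their absence, and no called value changed sign, though values without a call did, such as CISH with 2R6R-HNK (-0.13 to 0.94). The replicate block changed 0 of 128 calls. Same-numbered libraries of different groups did not deviate together (r of -0.03 to 0.05 over 28 group pairs), so this measure gave no sign that the numbers pair the libraries. It weighs all genes tested alike, those with low counts included, and so cannot exclude a pairing. With the correction for GC content and length, with or without the replicate block, 2 members were called with E2, 2 with ketamine, 4 with 2R6R-HNK, 2 and 3 in the interactions of E2 with ketamine and with 2R6R-HNK, and 3 between 2R6R-HNK and 2S6S-HNK with E2, where that fit called 38.1%, 48.7%, 45.6%, 36.8%, 43.4% and 29.7% of all genes. In the other 10 comparisons the count stayed within 1.5 times the main one, but the members called were not always the same. With E2+ketamine 5 members were called in each fit, and 2 calls were shared in the same direction. In the interaction of E2 with 2S6S-HNK 2 of 5 main calls were kept, and in ketamine minus 2S6S-HNK without E2 all 5 were. The interaction of E2 and ketamine had 1 to 2 members called on leaving out 1 library, the 2 being without E2 replicate 1. Among values called in either fit, signs reversed under the correction for SOCS4 (0.015) and SOCS6 (0.074) with E2, SOCS4 with ketamine (0.074, or 0.075 with the block), and SOCS3 with 2R6R-HNK (-0.041), 2S6S-HNK (-0.36), E2+ketamine (-0.17) and E2+2R6R-HNK (-0.44). They also reversed for the interactions of 2R6R-HNK in SOCS5 (-0.041) and SOCS6 (-0.18) and of 2S6S-HNK in SOCS6 (-0.098, or -0.094 with the block). Between compounds with E2 they reversed for SOCS4 in ketamine minus 2S6S-HNK (0.034), and in 2R6R-HNK minus 2S6S-HNK for SOCS4 (0.0028, or 0.0021 with the block), SOCS6 (0.026, or 0.025 with the block) and SOCS7 (-0.012). The cause was not tested. SOCS1 and CISH, with 33 to 135 counts per library, had the widest intervals.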
